A study of Mus musculus with 10 samples.

Results

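The genes described here are 26 genes of cholesterol synthesis and of its control by the sterol regulatory element-binding proteins (SREBPs), chosen by name from a list of the pathway. All 26 were found among the 30935 gene IDs of the count table, and all 26 passed the filter on low counts that left 15288 genes for testing. The counts came from RNA-seq of the whole midbrain of mouse embryos at embryonic day 14.5. Embryos of the deletion group were Rbfox1 ΔHAR.321/ΔHAR.321, that is, both copies lacked HAR.321, a human accelerated region of the Rbfox1 locus. Embryos of the control group were Rbfox1 +/+, and no other allele or agent is named for either group. Each group had 5 samples described as independent, and the libraries keep the numbers of their labels (wild-type 1, 2, 4, 5 and 6; deletion 2, 3, 4, 5 and 6). The sources used here name no litter, sex or strain, so the p-values measure the spread between these samples.

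Cells make cholesterol from acetyl-CoA through mevalonate, isoprenoid diphosphates, squalene and lanosterol. SREBPs are held in the endoplasmic reticulum with the escort protein SCAP and the INSIG proteins, and when sterols are scarce they move to the Golgi, are cut and switch on most genes of the pathway. Once the blood-brain barrier has formed, the brain makes nearly all of its own cholesterol.

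The libraries held 16246892 to 20255728 counts, and the 26 genes together took 0.421% to 0.475% of them. Rbfox1 itself was at 149 ± 11 CPM (the count scaled by library total and TMM factor; SD, n = 5) in wild-type and 161 ± 13.7 in the deletion group, a log2 fold change of 0.11 (SE 0.07, edgeR adjusted p = 0.606), and since HAR.321 was not placed on counted exons this level checks no label. In all, 9 of the genes tested passed the threshold of 0.05 on adjusted p, all 9 lower in the deletion group. The summed level of 10 neuron markers ran from 9888 to 10298 CPM in wild-type and from 9319 to 10785 in the deletion libraries, and that of 8 midbrain markers from 537 to 663 and from 548 to 606. Summed neural progenitor markers ran from 1733 to 2069 CPM in wild-type and from 1520 to 1980 in the deletion group, with 8 of 10 lower; red blood cell markers ran from 1699 to 2555 and from 2234 to 2981, with 7 of 7 tested higher. Markers of meninges, endothelium, microglia and the oligodendrocyte lineage were present at low levels, with no listed marker at 0 in every library; the part of any of these cells in the results below was not tested. In bulk tissue, fewer cells of a type and less RNA per cell cannot be told apart.

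The pathway was well expressed, with single-library counts of its genes between 162 and 18555. Per kilobase of the longest transcript, the highest level was that of Hmgcs1, the cytosolic HMG-CoA synthase, at 248 CPM per kb, rank 136 of the genes tested. Scd2, a stearoyl-CoA desaturase, followed at 170.1 CPM per kb and Acat2, the cytosolic acetoacetyl-CoA thiolase at the head of the pathway, at 113 CPM per kb. Cyp51 (lanosterol demethylase), Srebf2 (the SREBP that mainly drives sterol genes), Fdps (farnesyl diphosphate synthase), Fdft1 (squalene synthase) and Fasn (fatty acid synthase) lay between 46.8 and 59.6 CPM per kb. The lowest levels per kb were those of Stard4, a sterol transfer protein, at 6.61, Ebp, a sterol isomerase, at 7.0, and Srebf1, the SREBP that mainly drives fatty acid genes, at 8.62. The spread between libraries of one group (SD of log2 CPM) ran from 0.0400 for Sqle to 0.194 for Srebf1 (Insig2 and Cyp51 at 0.06 also varied little), and genes whose levels lay closer than this spread are not ordered by these data. Some counts are uncertain at the source: 45.9% of the 50-base words of Acat2 also occur in Acat3, 30.5% of those of Idi1 and 30.7% of those of Fdft1 occur in other genes, and an annotated gene on the same strand, Gm43738, covers 77.4% of the exonic bases of Fdps. The longest Fdps transcript shares 11.7% of its words with Gm43738. Genes on the opposite strand share words too: Ctsb 19.9% of those of Fdft1, Gm48342 13.6% of those of Hmgcs1 and 5830462I19Rik 13.1% of those of Scap.

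Promoter windows, from 250 bases before to 50 after the start site, were in the RefSeq table (build GRCm38.p6) for 21 of the 26 genes; Fdps, Fdft1, Sqle, Stard4 and Scd2 had no entry. The core of the sterol regulatory element, searched as TCACNCCAC on both strands, was in the window of 1 gene, Hmgcs1, with its first base at -137 from the start site. Over all genes of the table, 1.44% held it. The NF-Y box CCAAT was in a window of 19 of the 21 genes, against 41.1% of all genes, and the Sp1 box GGGCGG in a window of 19 of the 21, against 38.2%. Some genes had several windows. By window, CCAAT was in 20 of 29, against 37.4% of all windows, and GGGCGG in 23 of 29, against 35.7%. These shares cover every gene with a window, whether or not it was tested here, and no share among expressed genes was taken. NF-Y and Sp1 are factors known to act with SREBPs at such promoters. Printed are the windows of Hmgcs1, as the single match to the sterol element (picked after it was found), and of 4 sterol enzymes. These 4 had the highest median Pearson r with the other sterol enzymes between libraries. That median was low, at 0.26 for Cyp51, 0.24 for Msmo1, 0.21 for Mvd and 0.17 for Acat2. The windows run 5′ to 3′ on the strand of the gene, with every match of the 3 motifs, read on either strand, in capitals. They lie at chr13:119690101-119690400 (Hmgcs1, plus strand), chr5:4104648-4104947 (Cyp51), chr8:64733529-64733828 (Msmo1), chr8:122443373-122443672 (Mvd) and chr17:12960676-12960975 (Acat2), the last 4 on the minus strand.
Hmgcs1: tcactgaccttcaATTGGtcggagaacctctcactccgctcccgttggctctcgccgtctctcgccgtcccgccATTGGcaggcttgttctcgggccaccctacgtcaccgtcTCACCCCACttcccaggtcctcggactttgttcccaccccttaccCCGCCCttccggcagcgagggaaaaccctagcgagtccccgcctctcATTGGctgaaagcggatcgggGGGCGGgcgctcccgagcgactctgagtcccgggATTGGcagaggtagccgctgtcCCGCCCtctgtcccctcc
Cyp51: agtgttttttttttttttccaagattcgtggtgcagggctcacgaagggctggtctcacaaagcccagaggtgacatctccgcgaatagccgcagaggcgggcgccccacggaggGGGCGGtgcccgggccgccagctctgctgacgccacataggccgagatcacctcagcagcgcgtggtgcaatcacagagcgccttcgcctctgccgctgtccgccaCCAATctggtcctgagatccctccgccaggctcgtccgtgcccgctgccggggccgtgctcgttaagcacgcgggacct
Msmo1: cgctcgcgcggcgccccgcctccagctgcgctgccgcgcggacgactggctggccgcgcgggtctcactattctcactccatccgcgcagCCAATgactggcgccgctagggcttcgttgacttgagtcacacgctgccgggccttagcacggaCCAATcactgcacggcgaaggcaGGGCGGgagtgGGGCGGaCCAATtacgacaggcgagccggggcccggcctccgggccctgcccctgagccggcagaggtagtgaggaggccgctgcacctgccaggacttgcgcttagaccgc
Mvd: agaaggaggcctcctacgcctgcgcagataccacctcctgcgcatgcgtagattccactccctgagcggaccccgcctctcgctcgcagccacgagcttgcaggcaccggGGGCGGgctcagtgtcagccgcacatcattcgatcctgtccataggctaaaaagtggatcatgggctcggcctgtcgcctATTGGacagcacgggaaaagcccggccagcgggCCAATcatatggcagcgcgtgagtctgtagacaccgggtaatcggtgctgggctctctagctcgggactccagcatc
Acat2: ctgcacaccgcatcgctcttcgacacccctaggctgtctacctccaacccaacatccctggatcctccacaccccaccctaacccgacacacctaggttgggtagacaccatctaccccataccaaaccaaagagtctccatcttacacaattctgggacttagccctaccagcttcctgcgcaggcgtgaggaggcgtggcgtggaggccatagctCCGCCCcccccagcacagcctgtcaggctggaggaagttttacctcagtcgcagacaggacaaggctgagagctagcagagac
The Hmgcs1 window held 4 CCAAT boxes and 3 GGGCGG boxes around its sterol element. Msmo1, the methylsterol monooxygenase, held 3 CCAAT boxes, Mvd, the decarboxylase that makes isopentenyl diphosphate, held 2, Cyp51 held 1 and Acat2 held 0. A match is a description of these letters, and no binding was measured.

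The comparison of the groups asked whether the level of the pathway differed in midbrain without HAR.321. None of the 26 genes passed the threshold in edgeR's quasi-likelihood test, where 0.0589% of all genes did. At an unadjusted p under 0.05 there were 5 (19.2%), namely Fasn, Sc5d and Sqle, higher in the deletion group, and Tm7sf2 and Srebf1, lower; over all genes the share was 10.5%. Over all genes the count was 1611, and the alternatives moved both counts. With the replicate block they were 2 of the 26 and 924 of all genes, and without deletion 5 they were 2 and 1442. They were 3 and 1178 with the length trend removed, and 6 and 1463 with the length and GC trend removed. Without wild-type 2, wild-type 4, wild-type 5 or deletion 2 there were 3 of the 26, and 2043, 1320, 1262 and 1346 of all genes. They were 8 and 2039 with the GC trend removed, and 8 and 2432 without deletion 4. In the other alternatives 4 or 5 of the 26 had such a p. The replicate block compares the groups only within the replicate numbers that both share, with fewer degrees of freedom. 16 genes lay higher and 10 lower (38.5% lower, against 50.7% of all genes), and their median log2 fold change of 0.04 stood beside -0.00243 for all genes; leaving out a library gave between 13 higher (without wild-type 5) and 19 (without wild-type 4). The single largest change, that of Fasn, was 0.37, and 24 of the 26 lay within 0.2 of 0 on the log2 scale. DESeq2 called 1 of the 26, Fasn (adjusted p = 0.00472), where it called 3.28% of the 8174 genes it gave an adjusted p. Limma-voom called 0 of the 26 and 0% of all genes, with 5 of the 26 and 1656 of all genes at an unadjusted p under 0.05. With no filter on low counts edgeR called Fasn (0.36, adjusted p = 0.0136) and 0.301% of all genes. Without deletion 4, edgeR called 3 (Fasn at 0.33, Hsd17b7 at 0.29 and Sc5d at 0.23; adjusted p = 0.0472, 0.0418 and 0.0317) and 2.31% of all genes, and without wild-type 2 it called 1 (Fasn at 0.45, adjusted p = 0.0247) and 0.57% of all genes. The median of the 26 fold changes was 0.00677 without wild-type 2, 0.01 without wild-type 5 and 0.07 without wild-type 4.

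**Figure D1:**
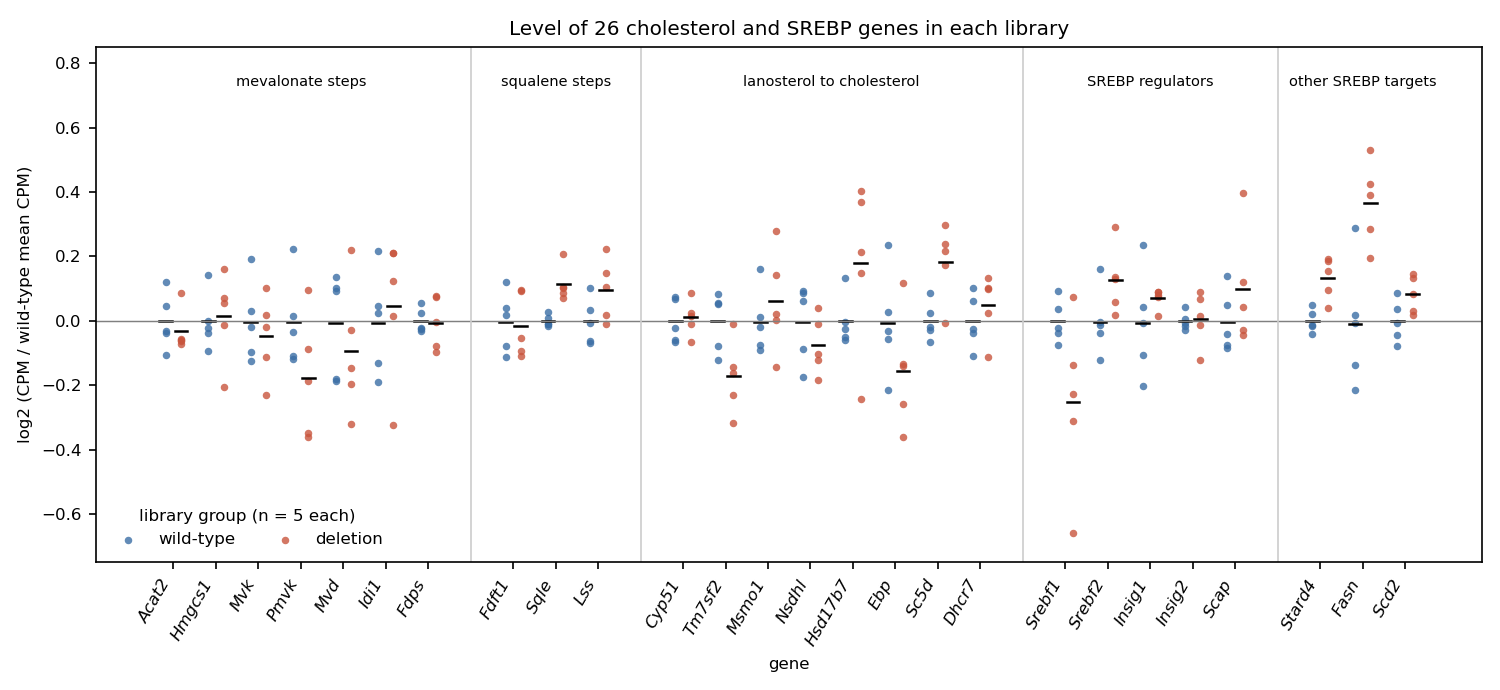
Level of each of the 26 genes in each library, as log2 of its CPM over the wild-type mean CPM, by role in the pathway; points are the 5 libraries of each group and bars their means on this scale. In 6 genes, Fasn among them, all 5 deletion points lie above 0 (the share over all genes was not taken). Sqle is the gene whose groups do not overlap, and in every other gene they do.

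The 7 genes of the mevalonate steps, from acetyl-CoA to farnesyl diphosphate, had 2 higher and 5 lower; their median was -0.03 on the log2 scale, with none at an unadjusted p under 0.05. Hmgcs1 was at 839, 831, 939.6, 799 and 852 CPM in wild-type 1, 2, 4, 5 and 6, and at 885, 845, 739.5, 896 and 952 CPM in deletion 2, 3, 4, 5 and 6. The groups overlapped over nearly their whole range, and deletion 4 held the lowest and deletion 6 the highest value of all 10 libraries. Its log2 fold change was 0.02 (SE 0.07, 95% interval -0.13 to 0.17, edgeR adjusted p = 0.961). Pmvk, the phosphomevalonate kinase, had the largest difference of this group, at 39.0 ± 3.88 CPM in wild-type and 34.7 ± 4.69 in the deletion group (-0.17, SE 0.10, edgeR adjusted p = 0.594). Idi1, the isopentenyl diphosphate isomerase, ran from 103 to 137 CPM in wild-type and from 94.1 in deletion 4 to 136 in deletion 2 and 5. Acat2, Mvk (mevalonate kinase), Mvd and Fdps had log2 fold changes between -0.08 (Mvd) and -0.00374 (Fdps), each with an interval that included 0.

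Of the 3 genes that make and close squalene, 2 were higher and 1 lower (median 0.10). Sqle, the squalene epoxidase, a rate-controlling oxygenase of the pathway, was at 164, 165, 167, 165 and 169 CPM in wild-type 1, 2, 4, 5 and 6. In deletion 2, 3, 4, 5 and 6 it was at 191, 178, 174, 176 and 178 CPM. Every deletion library lay above every wild-type library, which was true of 1 of the 26 genes (3.85%) and of 2.49% of all genes, in either direction. The difference was small, 0.11 on the log2 scale (SE 0.05, 95% interval 0.00057 to 0.23, edgeR adjusted p = 0.473). Lss, the lanosterol synthase that closes the ring, was at 65.5 ± 3.27 CPM in wild-type and 70.2 ± 4.68 in the deletion group (0.10, SE 0.07, edgeR adjusted p = 0.658). Fdft1, at 182 ± 11.9 and 181 ± 12.7 CPM, had the smallest difference of the 3.

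The 8 genes from lanosterol to cholesterol had 5 higher and 3 lower (median 0.03). Sc5d, the sterol desaturase near the end of the pathway, was at 72.4, 75.2, 78.4, 72.9 and 70.6 CPM in the wild-type libraries in the order above and at 85.8, 83.3, 73.5, 87.1 and 90.8 CPM in the deletion libraries. Deletion 4 lay inside the wild-type range and the other 4 deletion libraries above it. The log2 fold change was 0.19 (SE 0.07, 95% interval 0.05 to 0.33, edgeR adjusted p = 0.281). Hsd17b7, a ketoreductase of the sterol demethylation steps, was at 45.2, 41.1, 39.6, 39.8 and 40.5 CPM in wild-type and at 47.9, 45.8, 34.9, 53.2 and 54.5 CPM in the deletion group. Here too deletion 4 stood apart, as the lowest of all 10, while the other 4 lay above every wild-type library (0.19, SE 0.10, edgeR adjusted p = 0.510). Tm7sf2, a sterol reductase, was lower, at 51.1, 52.0, 46.5, 50.9 and 45.1 CPM in wild-type and 43.9, 41.9, 44.4, 39.4 and 48.8 CPM in the deletion group. No deletion library reached the wild-type mean of 49.1 CPM, though deletion 6 lay inside the wild-type range (-0.17, SE 0.08, edgeR adjusted p = 0.448). Cyp51 (233 ± 11 and 235 ± 9.01 CPM), Msmo1 (93.8 ± 6.67 and 98.3 ± 10.9), Nsdhl, a dehydrogenase of the demethylation steps (55.0 ± 4.48 and 52.2 ± 3.27), Ebp (12.8 ± 1.48 and 11.6 ± 1.47) and Dhcr7, the reductase of the last step (63.2 ± 3.64 and 65.5 ± 4.31), differed by less than 0.2 on the log2 scale, with intervals that included 0.

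Among the 5 regulators, the 2 SREBP genes lay on opposite sides. Srebf1 was at 39.0, 42.7, 41.1, 38.0 and 39.4 CPM in wild-type and at 34.2, 36.4, 42.1, 32.3 and 25.4 CPM in the deletion group. Deletion 4 lay within the wild-type values, the other 4 lay below all of them, and deletion 6 was the lowest (log2 fold change -0.23, SE 0.10, 95% interval -0.45 to -0.02, edgeR adjusted p = 0.421). Srebf2 was at 274, 307, 267, 252 and 272 CPM in wild-type and at 302, 278, 336, 301 and 286 CPM in the deletion group. Each of the 5 deletion values exceeded the mean of the wild-type group, and the groups overlapped through wild-type 2 (0.13, SE 0.07, edgeR adjusted p = 0.516). Scap, the sterol-sensing escort, reached 115 CPM in deletion 4 and lay between 82.6 and 96.6 CPM in the other 9 libraries (0.11, SE 0.08, edgeR adjusted p = 0.692). Insig1, an SREBP target that holds the SCAP complex back, ran from 72.2 to 97.9 CPM in wild-type but only from 84.0 to 88.4 in the deletion group (0.07, SE 0.07, edgeR adjusted p = 0.809). Its relative Insig2 was at 35.7 ± 0.693 and 35.9 ± 2.00 CPM.

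The 3 other SREBP targets were all higher, with a median of 0.13. Fasn, which makes palmitate and is a target of SREBP and of LXR, was at 408, 501, 373, 353 and 415 CPM in wild-type and at 549.95, 469.8, 592, 499 and 538 CPM in the deletion group. The wild-type mean of 410.0 CPM was exceeded in 5 of 5 deletion libraries, and wild-type 2 was the one wild-type library to reach into their range. The log2 fold change was 0.37 (SE 0.08, 95% interval 0.19 to 0.55, edgeR adjusted p = 0.0785). Stard4 was at 32.1 ± 0.778 CPM in wild-type and 35.3 ± 1.58 in the deletion group (0.13, SE 0.08, edgeR adjusted p = 0.575), and overlapped by 1 deletion library, deletion 4. Scd2 was at 901 ± 41.1 and 955 ± 38.8 CPM (0.08, SE 0.06, edgeR adjusted p = 0.688).

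**Figure D2:**
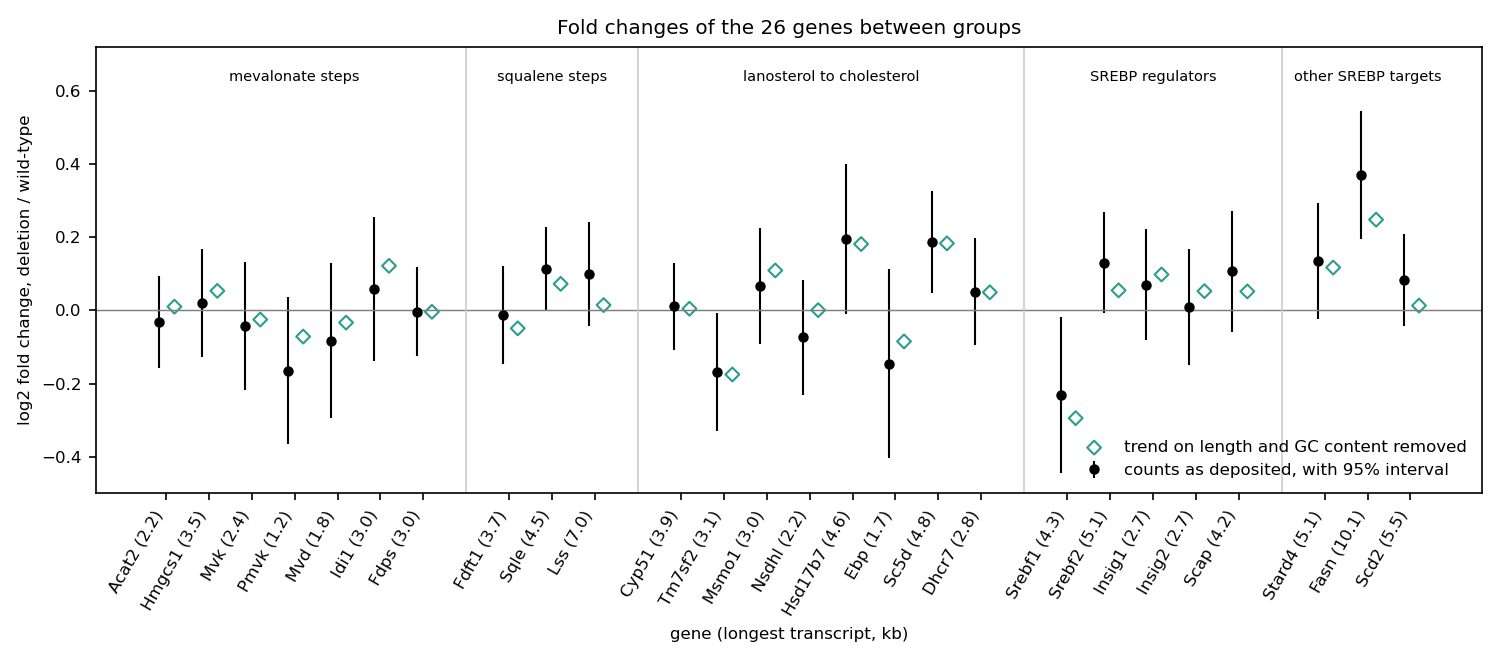
Log2 fold change of each gene, deletion over wild-type, with its 95% interval (black points, counts as deposited) and after each library's trend on transcript length and GC content was removed (open diamonds); the longest transcript in kb stands beside each name. Fasn, the longest at 10.1 kb, moves from 0.37 to 0.25, and Srebf1 from -0.23 to -0.29.

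The fold changes of the pathway followed transcript length. All 6 genes with a longest transcript under 2.5 kb were lower in the deletion group (Acat2, Mvk, Pmvk, Mvd, Nsdhl and Ebp), 7 of the 10 between 2.5 and 4 kb were higher, and 9 of the 10 over 4 kb were higher, with Srebf1 as the exception. Over the 26 genes, log2 fold change and log2 length had a Pearson r of 0.73 and a Spearman rho of 0.74, as a description over genes that share the same 10 libraries. The same held over the 10799 better expressed genes of the whole table, with r of 0.47. Slopes on length were taken, for these genes, on log2 CPM minus each gene's mean over the 10 libraries. They were -0.03 ± 0.02 per doubling (SD, n = 5) in wild-type and 0.03 ± 0.05 in the deletion libraries. Deletion 4 had -0.05 and deletion 6 had 0.10. Such slopes are relative and cancel out over the 10 libraries, so the group means mirror each other. With each library's trend on length and GC content removed, r over the 26 genes was 0.41, the median log2 fold change 0.03, and 18 genes were higher. In that fit Fasn was at 0.25 (SE 0.05, edgeR adjusted p = 0.0507), Sc5d at 0.18 (SE 0.05, edgeR adjusted p = 0.155) and Srebf1 at -0.29 (SE 0.09, edgeR adjusted p = 0.183); 0 of the 26 and 0.137% of all genes passed. With the GC trend alone removed, a fit chosen after seeing the data, edgeR called Fasn (0.37, adjusted p = 0.00375) and Sc5d (0.20, adjusted p = 0.0480), 2 of the 26, and 1.64% of all genes. The part of RNA quality or library preparation in the length trend was not tested.

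The second question was whether the pathway moved as one between libraries of a group. For each gene the deviation of log2 CPM from its group mean was taken in the 10 libraries, and the Pearson r of every pair was computed. The 325 pairs had a median r of 0.02, with quartiles of -0.37 and 0.37, and 51.4% were above 0. The 116853828 pairs of all genes tested had a median of 0 and quartiles of -0.299 and 0.299. Pairs with r above 0.5 made up 17.5% of the pathway's pairs and 14.6% of the pairs of all genes at least as abundant as Ebp. Among the 18 sterol enzymes alone the median was 0.05 over 153 pairs, with 17.6% above 0.5. By role, the median was -0.11 within the mevalonate steps, -0.01 from lanosterol on and -0.32 among the 5 regulators. In the same libraries 10 genes of proliferation had a median r of 0.87, with 100% of their 45 pairs above 0.5, and other lists ran lower: 0.49 within the oligodendrocyte lineage, 0.40 within red blood cell, 0.37 within neuron and 0.22 within neural progenitor markers. Several lay as near 0 as the pathway or below it, among them fatty acid synthesis (0.07), isoprenoid branches (-0.02), SREBP processing (-0.09), midbrain (-0.05) and microglia markers (-0.14). Between sterol enzymes and proliferation genes the median was -0.12, with neural progenitor markers -0.07 and with neuron markers 0.11.

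The extremes of the pathway's pairs ran in both directions. The closest pairs were Hmgcs1 with Sc5d (r = 0.91), Srebf2 with Fasn (0.90), Mvk with Srebf2 (0.84), Idi1 with Msmo1 (0.83), Srebf2 with Scap (0.82), Hsd17b7 with Insig2 (0.82) and Hmgcs1 with Idi1 (0.82). The most opposed were Hmgcs1 with Ebp (-0.86), Scap with Insig2 (-0.84), Cyp51 with Ebp (-0.84), Pmvk with Idi1 (-0.84) and Srebf1 with Hsd17b7 (-0.82). Pmvk and Idi1 both belong to the mevalonate steps, and Cyp51 and Ebp to those from lanosterol on.

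The pairs sorted by the base composition of the transcripts. The 138 pairs whose longest transcripts lay under 5 percentage points of GC apart had a median r of 0.25, and the 71 pairs over 10 points apart had -0.41 (Spearman rho of r with the GC difference -0.50; with the difference in log2 length -0.10; over pairs that share genes and libraries). The libraries themselves differed in this respect. Their slopes on GC content were taken over the 10799 better expressed genes, on log2 CPM minus each gene's mean over the 10 libraries. These relative slopes ran from -0.10 to 0.09 per 10 points in wild-type and from -0.08 to 0.25 in the deletion group. Deletion 4 was at 0.25 and deletion 2, 3, 5 and 6 were between -0.08 and -0.03. The GC-poor genes Hmgcs1, Idi1, Sc5d and Hsd17b7 had in deletion 4 their lowest value of the deletion group, and the GC-rich genes Scap, Srebf2, Fasn and Mvd had there their highest value of all 10 libraries. The r of a gene with the GC slope of the library was -0.91 for Idi1 (41.9% GC), -0.85 for Sc5d (42.9%) and -0.84 for Hmgcs1 (43.1%), against 0.91 for Scap (59.1%), 0.83 for Mvd (59.0%) and 0.81 for Srebf2 (57.9%). Over the 26 genes the Spearman rho of GC content with that r was 0.91, and 0.63 without deletion 4. The library slope was itself fitted on GC content in the same libraries. Such a rise is therefore largely built in and is no finding about the pathway. Without deletion 4 the rho of pair r with the GC difference was -0.08.

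**Figure D3:**
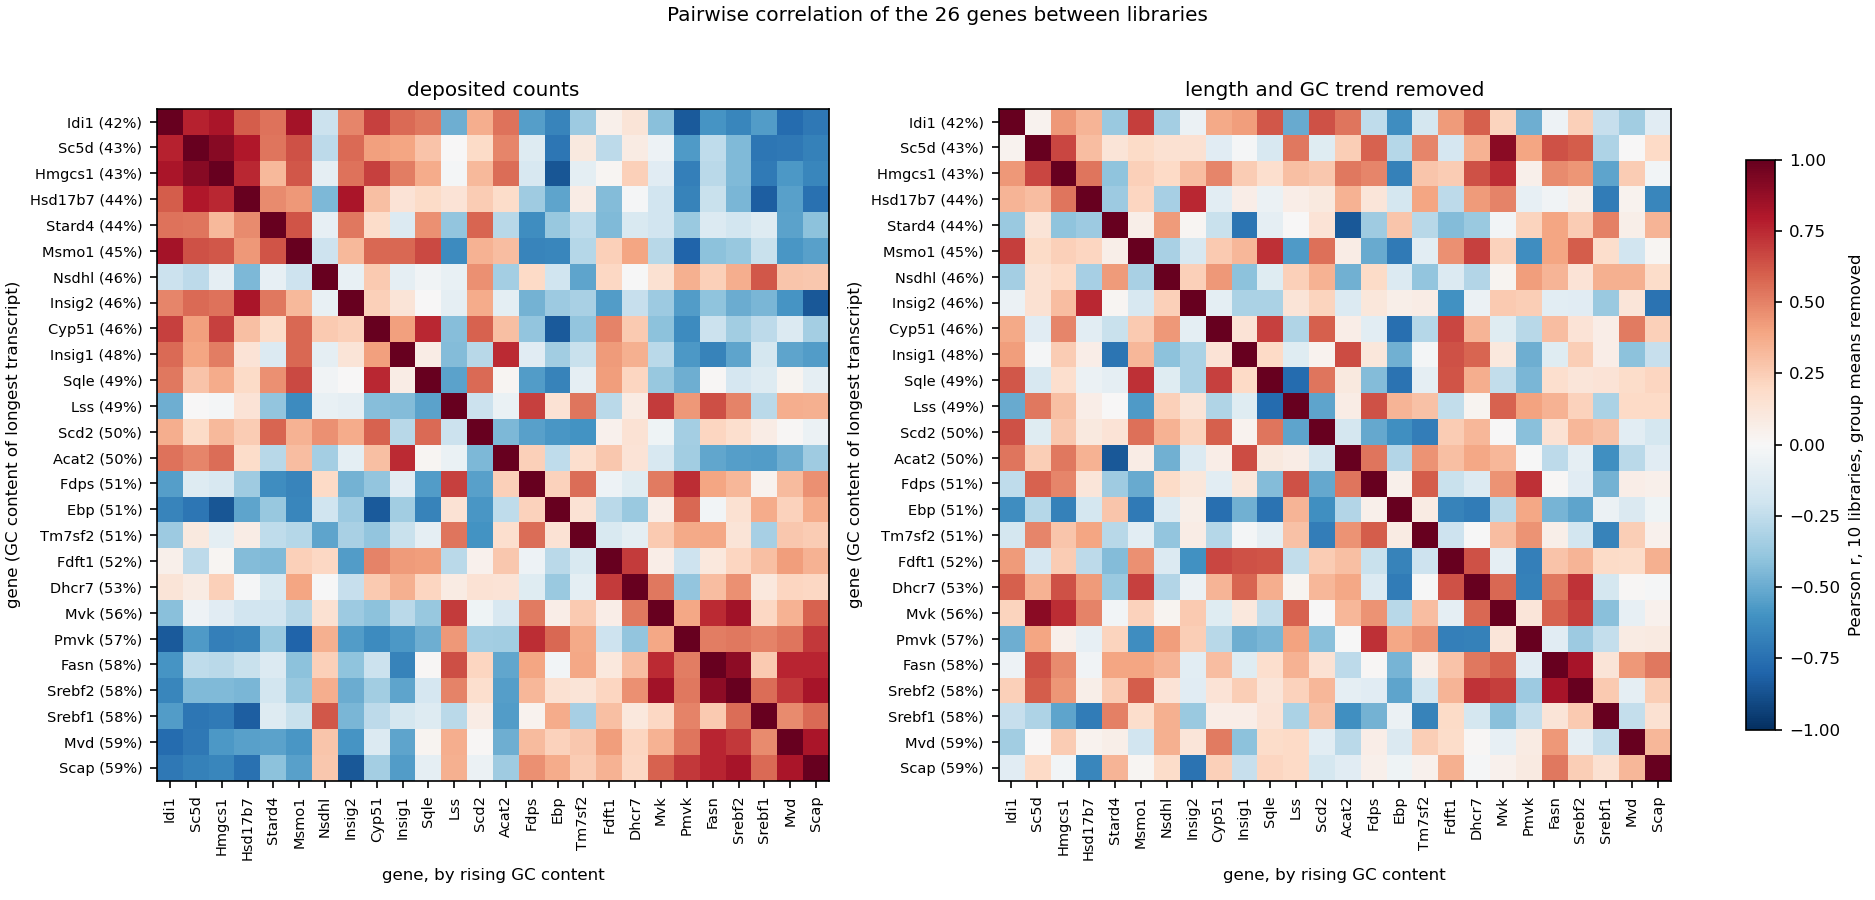
Pairwise Pearson r of the 26 genes over 10 libraries with group means removed, genes ordered by GC content of the longest transcript on both axes; the left panel is from the deposited counts and the right panel after removal of each library's trend on length and GC content. The left panel has red blocks at both ends of the diagonal and blue corners (median r of pairs over 10 points of GC apart -0.41), which the right panel lacks (0.18). Removing the GC trend largely brings this loss about by itself.

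**Figure D4:**
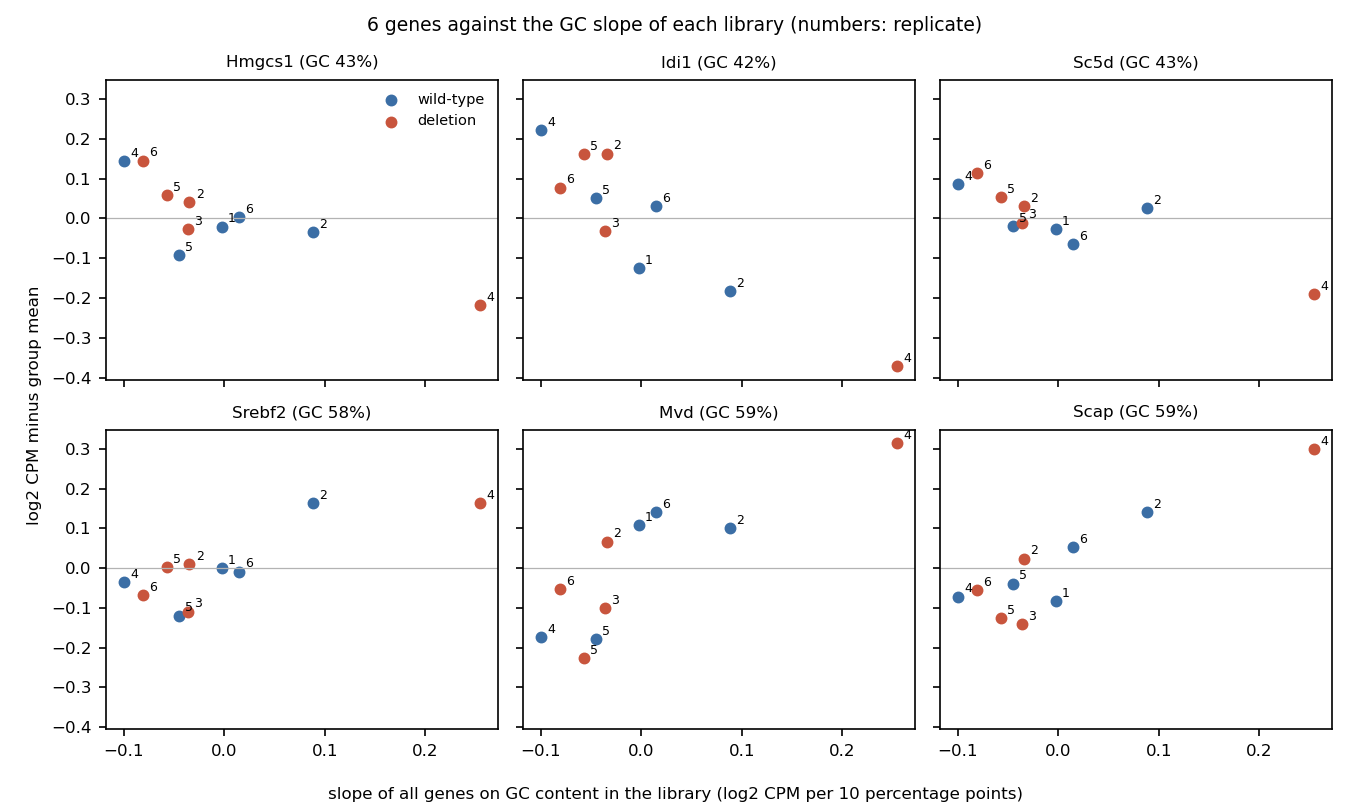
Deviation of log2 CPM from the group mean (vertical axis) against the relative slope of the better expressed genes on GC content in the same library (horizontal axis, log2 CPM per 10 percentage points), for 3 genes poor and 3 genes rich in GC, with replicate numbers beside the points. Deletion 4, at a slope of 0.25, is the lowest point for Hmgcs1, Idi1 and Sc5d and the highest, or level with the highest, for Srebf2, Mvd and Scap.

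Once each library's length and GC trend was taken out, the median r of the 325 pairs was 0.08, 59.7% were above 0 and 13.2% above 0.5, against 10.5% of the pairs of all genes at least as abundant as Ebp in that fit. The sterol enzymes had a median of 0.12. The rho of r with the GC difference was 0.01, which largely follows from removing the GC trend, and 99 of the 325 pairs changed sign. Srebf2 with Fasn was at 0.83 in that fit and Hmgcs1 with Sc5d at 0.66. Mvk with Sc5d went from -0.05 in the deposited counts to 0.90, and Mvk with Hmgcs1 from -0.11 to 0.74. Sqle with Lss, which act one after the other, was at -0.53 in the deposited counts and -0.77 in that fit, and Acat2 with Stard4 went from -0.27 to -0.85.

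Of the pairs named for their regulatory tie, 6 were tested with an exact two-sided permutation of libraries within groups (every order, smallest p 6.94e-05), and p-values were adjusted over the 6. Insig1 with Hmgcs1 had r = 0.51 (exact permutation p = 0.0420, adjusted p = 0.252) and rho = 0.60 (exact permutation p = 0.0647, adjusted p = 0.388). Its r was 0.70 within wild-type and 0.89 within the deletion group, and 0.35 without the 2 libraries farthest from the median of Insig1. It was 0.21 without wild-type 4, between 0.51 and 0.57 on leaving out any other single library, and 0.25 with the length and GC trend removed. Within the deletion group, deletion 4 was lowest in both genes, at 84.0 CPM of Insig1 and 739.5 of Hmgcs1. The other deletion libraries lay between 87.6 and 88.4 CPM of Insig1 and between 845 and 952 of Hmgcs1. The r within that group without deletion 4 was not taken. Srebf2 with Hmgcs1, the factor and a classic target, had r = -0.44 (exact permutation p = 0.241, adjusted p = 0.722) and rho = -0.19 (adjusted exact permutation p = 0.866). That r was 0.01 within wild-type and -0.74 within the deletion group, -0.31 without the 2 libraries farthest from the median of Srebf2, 0.06 without deletion 4 and 0.44 once the length and GC trend was removed. Srebf2 with Sqle had r = -0.17 and rho = -0.26, and r = 0.11 without the 2 libraries farthest from the median of Srebf2. Insig1 with Sqle had r = 0.08 and rho = -0.04, and r = -0.09 without the 2 farthest. Srebf1 with Fasn had r = 0.26 and rho = 0.36, and r = 0.56 without the 2 farthest, while Srebf1 with Scd2 had r = 0.07 and rho = 0.14, and r = -0.27 without them. These 4 pairs had adjusted exact permutation p between 0.803 and 0.867 for r and between 0.866 and 0.986 for rho. The sign of r turned without deletion 4 for Srebf2 with Sqle (0.15), Insig1 with Sqle (-0.00367) and Srebf1 with Fasn (-7.56e-05), and without deletion 6 for Srebf1 with Scd2 (-0.37). None of the 6 pairs passed the threshold on adjusted p. SREBP activity is set mainly by cleavage, which transcript counts do not measure.

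Genes around the pathway were taken from 4 lists by function, and 0 of them passed the threshold in either direction. Of 17 genes of fatty acid synthesis, 14 were higher and 3 lower (median 0.09), with 4 at an unadjusted p under 0.05, all higher. Over all genes tested 49.3% were higher and 10.5% had such a p. Those 4 were Elovl6, Lpin1, Scd1 and Me1, with longest transcripts of 5951, 5581, 4832 and 3292 bases. The median length was 3950 bases in this list and 3386 over all genes tested. Values of the 4 lists with the length trend removed were not taken. Elovl6, the elongase of palmitate, was at 83.6 ± 4.45 CPM in wild-type and 96.7 ± 8.51 in the deletion group (0.21, SE 0.07, edgeR adjusted p = 0.231), and Me1, a source of NADPH for lipid synthesis, at 31.0 ± 3.09 and 36.4 ± 3.99 (0.23, SE 0.09, edgeR adjusted p = 0.365). Of 17 genes of isoprenoid branches and redox partners, 8 were higher and 9 lower (median -0.03), with 0 at such a p. The smallest p there belonged to Rce1, a protease of prenylated proteins (-0.24, SE 0.13, edgeR adjusted p = 0.539), and Coq2, of ubiquinone synthesis (-0.13, SE 0.08, edgeR adjusted p = 0.617). Of 12 genes of SREBP processing and sterol-regulated degradation, 7 were higher and 5 lower (median 0.06), with 2 at such a p, both higher. Sec24d, a coat protein of the vesicles that leave the endoplasmic reticulum, was at 6.38 ± 1.18 and 8.30 ± 1.29 CPM (0.38, SE 0.16, edgeR adjusted p = 0.399), and Marchf6, a ubiquitin ligase that degrades squalene epoxidase, at 308 ± 18 and 339.9 ± 27.1 CPM (0.14, SE 0.07, edgeR adjusted p = 0.466). Of 28 genes of sterol export, LXR, uptake and transport, 26 were tested (not Cyp27a1 and Ch25h), 19 were higher and 7 lower (median 0.06), with 6 at such a p, 3 in each direction. Lrp1, a receptor for ApoE-bearing particles with a longest transcript of 14888 bases, was at 345 ± 45.8 and 428 ± 38.7 CPM (0.31, SE 0.08, edgeR adjusted p = 0.130). Npc2, which hands cholesterol out of lysosomes, was lower, at 100.4 ± 3.74 and 88.6 ± 4.10 CPM, with groups that did not overlap (-0.18, SE 0.06, edgeR adjusted p = 0.241).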

How the data were processed

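The authors deposited 1 table of gene counts, raw and whole, by Entrez gene ID, from total RNA of 10 midbrain samples. HISAT2 (an aligner), featureCounts (a read counter) and the build mm39 are named, per the submitters' processing notes; the sources used here do not give versions, annotation, strandedness or the treatment of reads with several matches, and each bears on overlapping and duplicated genes. 0 columns stayed without a sample. RefSeq tables of build GRCm38.p6 gave symbols for 30648 of 30935 IDs and promoter sequences, and the longest GENCODE transcript of each gene on GRCm38 gave length and GC content for 15086 of the 15288 genes tested (98.7%).

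Counts were filtered with filterByExpr, scaled by TMM and tested two-sided with edgeR 4.0.16 in R 4.3.3 (robust quasi-likelihood F test, group as the only term), with Benjamini-Hochberg adjustment over all genes tested and a threshold of 0.05. The script was tested on simulated data. Libraries of a group were compared for duplicates (lowest chi-square per degree of freedom 5.96 over 14091 genes), and all were kept. Correlations used log2 CPM with a prior count of 2, minus the group mean. Length and GC trends were per-library splines (4 degrees of freedom, genes above a mean log2 CPM of 3), used as offsets. DESeq2 1.42.0 and limma-voom (limma 3.58.1), another filter, other scaling factors, a replicate block and leaving out each library were alternatives; removal of the GC trend alone and leaving out libraries from the gene pairs were chosen after seeing the data.

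All 26 genes are named. Of each list of other pathway genes, any gene past the threshold was to be named and otherwise the 2 with the smallest p. The 8 genes most like the mean of the sterol enzymes, with at least 10 CPM, are named. Symbols of the form Gm plus digits or ending in Rik were passed over. The 4 printed promoters beside Hmgcs1 are those of the enzymes with the highest median r with other sterol enzymes. Members and lists were chosen with earlier results of these data known. Precision is set by 5 libraries per group.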

Additional observations from a re-analysis of the deposited data

Results flagged for a closer look

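In 3 of the 52 gene-by-group sets of 5 libraries, the highest or lowest library lay far from the others. Its gap over the range of the set, taken on the log scale of CPM, exceeded the 95% critical value of Dixon's ratio (0.71). By chance about 1 in 20 would. Acat2 was at 273 CPM in deletion 6 and at 247 CPM in the next highest deletion library (ratio 0.909). Sqle was at 191 CPM in deletion 2, against 178 CPM in the next (ratio 0.746). Insig1 was at 84.0 CPM in deletion 4, against 87.6 CPM in the next lowest (ratio 0.809), within a group that spanned only a few CPM.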

How the results depend on the processing

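The number of the 26 genes past the threshold, 0 in the edgeR fit, was 1 with no filter on low counts (Fasn, adjusted p = 0.0136), 1 in DESeq2, 2 with the GC trend alone removed (Fasn and Sc5d, adjusted p = 0.00375 and 0.0480) and 0 to 3 on leaving out a library; it was 0 under the other alternatives run. 23 of the 26 passed under none of the 21 alternatives, Fasn under 5. The median log2 fold change ran from 0.00677 to 0.0676 on leaving out a library. 16 genes kept one sign throughout, 12 higher and 4 lower. The other signs turned at values near 0, and the cause was not tested: with the length trend removed Acat2 0.0202, Fdps 0.0160 and Cyp51 -0.00284; with length and GC removed Acat2 0.0102 and Nsdhl 0.000696; with the replicate block and both trends removed Acat2 0.00895, Mvk 0.00937, Mvd 0.0149 and Scd2 -0.00209; with the replicate block Fdft1 0.0159. On leaving out a library the ranges were -0.0637 to 0.000334 for Acat2, -0.0178 to 0.0712 for Hmgcs1, -0.0803 to 0.00221 for Mvk, -0.0240 to 0.0146 for Fdps, -0.0454 to 0.0202 for Fdft1, -0.0122 to 0.0305 for Cyp51 and -0.0166 to 0.0407 for Insig2.

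Replicate numbers 2, 4, 5 and 6 occur in both groups, but no paired design is stated, so the numbers were not taken as pairs. The deviations of same-numbered libraries had correlations of -0.08, -0.13, -0.06 and 0.12. These values do not show whether such libraries shared a litter or batch. With the replicate block, 0 of the 26 and 0 of all genes passed (9 without it), the median log2 fold change was 0.03 and the median pairwise r -0.02. In that fit wild-type 1 and deletion 3 have no partner. The groups are compared only within numbers 2, 4, 5 and 6, with fewer degrees of freedom, and the pairwise r rests on those libraries.

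The median pairwise r stayed between -0.07 and 0.08 under every alternative run. Of the 6 gene pairs, with length and GC removed, Srebf2 with Hmgcs1 was at 0.44 and Srebf2 with Sqle at 0.12; without the 2 farthest libraries Srebf2 with Sqle was at 0.11, Insig1 with Sqle at -0.0899 and Srebf1 with Scd2 at -0.27. Leaving out a library gave -0.69 to 0.0583 for Srebf2 with Hmgcs1, -0.51 to 0.15 for Srebf2 with Sqle, -0.00367 to 0.18 for Insig1 with Sqle, -7.56e-05 to 0.55 for Srebf1 with Fasn and -0.37 to 0.50 for Srebf1 with Scd2. With 5 libraries a group, log2 differences of the size seen here, mostly under 0.2, lay within intervals that included 0 for 21 of the 26 genes. Each gene had at least 162 counts in every library.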

Other observations

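The 8 genes outside the 26 whose deviations from the group mean followed the mean of the 18 sterol enzymes most closely, among 10028 genes compared over the 10 libraries, were none of the 4 lists of neighbouring pathways. They were Pja1 (r = 0.96), Meaf6 (0.95), St3gal5 (0.95), Smyd2 (0.92), Gnb1 (0.91), Lrfn5 (0.89), Fam171a1 (0.88) and Cmas (0.88). They were picked as the highest of these r, and the r that unrelated genes would reach by such a choice was not taken. After removal of the length and GC trend, their r with the mean of the same enzymes ran from 0.75 for Lrfn5 to 0.94 for Pja1. That fit used the same libraries and the genes already picked, so it is no separate support. The mean itself, in SD units, was highest in deletion 6 (0.42) and wild-type 4 (0.40) and lowest in wild-type 5 (-0.36) and deletion 3 (-0.36). The likeness is a description of 10 libraries.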
